A study of Mus musculus with 12 samples.

Results

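Brown adipose tissue secretes proteins as well as producing heat, and 6 genes of such factors were followed here: Kng2, Nrg4, Bmp8b, Vegfa, Vegfb and Fndc5. They were listed by name, and are 6 of the 24452 genes in the deposited RPKM table. RPKM scales reads to gene length and library size. RNA was measured in mouse brown adipose tissue in 4 groups of 3 libraries. WT mice were littermates with floxed alleles and no Cre, and ERRKO mice carried a deletion of floxed ERRα and ERRγ by adiponectin-Cre (ERRαγAd-/-), which acts in white as well as brown adipocytes and leaves the other cells of the tissue with both genes. WT_PBS and ERRKO_PBS received PBS, while WT_CL and ERRKO_CL received CL316,243, which activates the β3-adrenergic receptor, once a day for 10 days at 1 mg/kg. All mice were male C57BL/6J Bom, 12 weeks of age and kept at 30 °C, and tissue was collected 24 h after the last dose. Whether each library is 1 animal is not stated in the labels, so the p-values reflect only how far these samples vary.

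The 6 genes encode factors with different receptors. Kng2 encodes a kininogen, the precursor from which kallikreins release bradykinin, and Nrg4 an EGF-family ligand of ErbB receptors that brown fat sends to the liver. Bmp8b is a bone morphogenetic protein induced in activated brown fat. Vegfa is the main growth factor of blood vessels and signals through Flt1 and Kdr, whereas Vegfb binds Flt1 and Nrp1. Fndc5 is the membrane protein from which the circulating peptide irisin is cut, best known from skeletal muscle. ERRα and ERRγ are nuclear receptors that switch on genes for oxidative metabolism, and the β3-adrenergic receptor carries the cold signal to brown adipocytes.

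The second deposited table held 8478310 to 9727167 recovered reads per library in WT and 12468001 to 13263567 in ERRKO, and its numbers of reads stand behind the levels below. On the deposited scale the typical gene was 0.53 (log2) higher in ERRKO than in WT under PBS and 0.63 higher under CL316,243. It was lower with CL316,243 by -0.26 in WT and -0.16 in ERRKO. Levels are therefore given as scaled RPKM, after dividing each library by its median-of-ratios factor, and changes as log2 of scaled RPKM plus 0.5, a form that understates the change of low genes. P-values are from limma, adjusted by the Benjamini-Hochberg method over 12191 genes. On this scale the calls at adjusted p under 0.05 split into 1923 higher and 2260 lower for ERRKO_PBS against WT_PBS, and on the deposited scale into 8115 and 762. For ERRKO_CL against WT_CL the splits were 2420 and 2659, and 8640 and 811. For CL316,243 in WT they were 2203 and 1532, and 882 and 4671, for CL316,243 in ERRKO 816 and 435, and 396 and 1672, and for the interaction 230 and 248, and 475 and 154. Esrra, the gene of ERRα, was at 41.7 to 83.2 in the 6 WT libraries and 5.26 to 8.90 in the 6 ERRKO libraries. Esrrg, the gene of ERRγ, passed under PBS (-0.87 ± 0.25 SE, adjusted p = 0.0188) but not under CL316,243 (0.03, adjusted p = 0.944). With deposited scaling the first was not called (-0.34, adjusted p = 0.274) and the second was called higher in ERRKO (0.69, adjusted p = 0.034), so the check of the labels rests on Esrra.

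The summed level of 7 brown adipocyte markers was 2867 to 4892 in WT_PBS and 7122 to 9156 in WT_CL, against 382 to 683 in ERRKO_PBS and 1187 to 1512 in ERRKO_CL, with no marker at 0 everywhere. The sum of 7 general adipocyte markers was 11078 to 16139, 16740 to 17859, 11829 to 15989 and 19612 to 19888 in the same order. In bulk tissue, fewer cells of a type and less RNA per cell cannot be told apart. Skeletal muscle transcripts, summed over 18 markers, ranged from 15.9 to 349 in WT_PBS and 17.4 to 442 in WT_CL, against 130 to 3655 in ERRKO_PBS and 244 to 1896 in ERRKO_CL. Both ERRKO libraries numbered 3 stood highest of their group in muscle transcripts. For the secreted-factor genes followed here, changes are given without these libraries where that alters a call. Calls of the other genes named below were not rechecked without them.

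**Figure D1:**
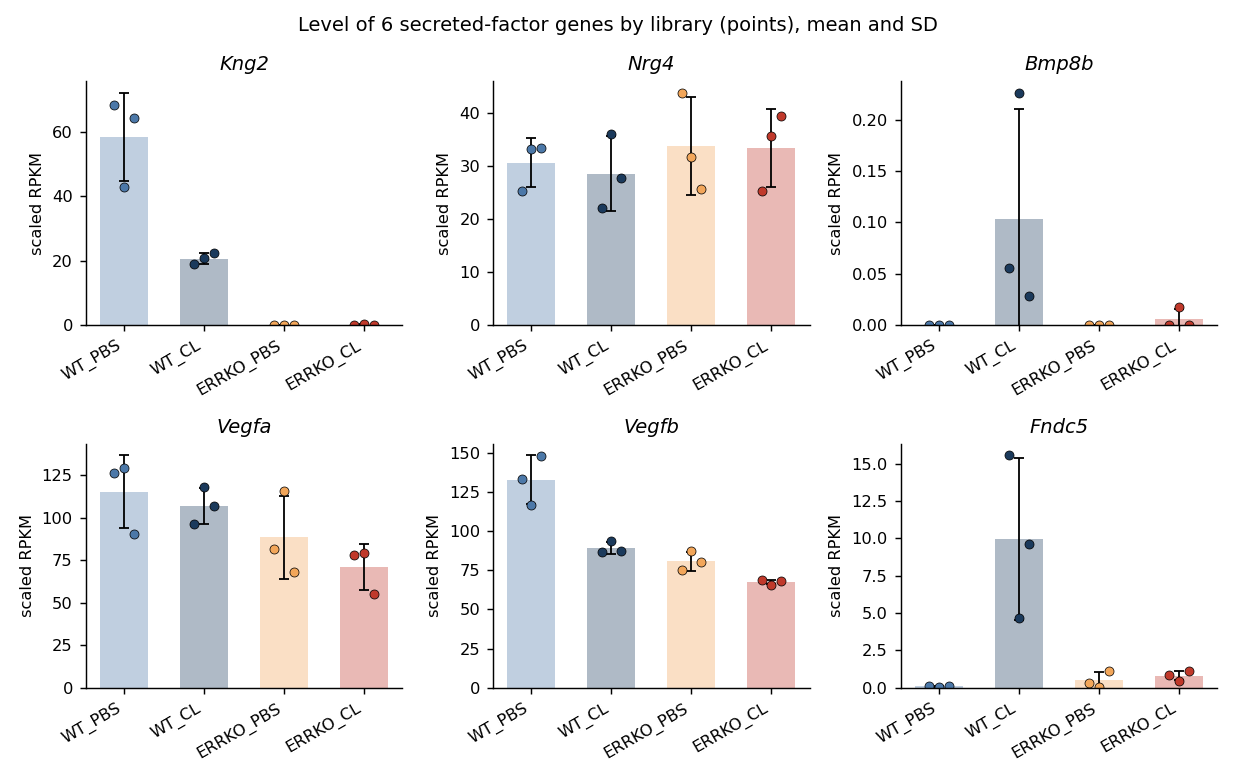
Scaled RPKM (vertical axes, linear, each gene on its own scale) of the 6 genes in the 4 groups; points are libraries, bars are means and lines are 1 SD, cut off at 0. Kng2 lay at 18.9 or above in WT and at 0.228 or below in ERRKO, Fndc5 lay at 4.69 to 15.6 in WT_CL and at 1.15 or below in the other groups, and the Nrg4 groups overlapped.

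In WT_PBS the order of levels was Vegfb (133 ± 15.6 scaled RPKM, SD, n = 3), Vegfa (115 ± 21.4), Kng2 (58.6 ± 13.7), Nrg4 (30.7 ± 4.67), Fndc5 (0.104 ± 0.0256) and Bmp8b (0). Vegfb and Vegfa overlapped there, and the other neighbours did not. The mean of Vegfb was above that of 96.8% of tested genes in WT_PBS, and that of Kng2 above 93.0%. In WT_CL the order was Vegfa (107 ± 10.7), Vegfb (89.1 ± 3.86), Nrg4 (28.6 ± 7.0), Kng2 (20.7 ± 1.75), Fndc5 (9.97 ± 5.45) and Bmp8b (0.103 ± 0.107), and among neighbours only Nrg4 and Kng2 overlapped. In ERRKO_PBS Vegfa (88.5 ± 24.4) overlapped Vegfb (80.8 ± 5.99), Nrg4 followed at 33.8 ± 9.26, and Fndc5 (0.511 ± 0.568) overlapped Kng2 (0.0787 ± 0.0270), with Bmp8b at 0. In ERRKO_CL the means were 70.8 ± 13.5 for Vegfa, 67.5 ± 1.54 for Vegfb, 33.5 ± 7.36 for Nrg4, 0.818 ± 0.325 for Fndc5, 0.109 ± 0.107 for Kng2 and 0.00590 ± 0.0102 for Bmp8b, and only Vegfa and Vegfb overlapped as neighbours. Kng2 thus ranked above Nrg4 and Fndc5 in WT_PBS and below both in the 2 ERRKO groups.

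Of the 6 genes, 5 passed the filter of a mean scaled RPKM of at least 0.5 and Bmp8b did not. Fndc5 passed mainly through WT_CL (mean 9.97, against 0.104 in WT_PBS, 0.511 in ERRKO_PBS and 0.818 in ERRKO_CL). Kng2 passed through the WT groups (58.6 and 20.7, against 0.0787 and 0.109 in ERRKO). Calls that rest on those high groups are thus not independent of the filter. For ERRKO_PBS against WT_PBS 2 of the 5 were called, both lower (Kng2 and Vegfb), where 34.3% of all tested genes were called in either direction and 18.5% lower. For ERRKO_CL against WT_CL 4 of the 5 were called lower (Kng2, Fndc5, Vegfa and Vegfb), against 21.8% of all genes lower and 41.7% called in all. With CL316,243 in WT 1 was called higher (Fndc5) and 2 lower (Kng2 and Vegfb), against 18.1% of all genes higher, 12.6% lower and 30.6% in all. With CL316,243 in ERRKO limma called 0 of the 5, where 10.3% of all genes were called. Without adjustment the limma p was under 0.05 for 1 of them (Vegfb, 0.0226). The difference between the 2 responses (interaction) was called for 2 of the 5, Kng2 and Fndc5, against 3.92% of all genes. By edgeR on the recovered reads 2, 4, 3, 0 and 1 of the 5 were called in these comparisons, against 34.8%, 41.1%, 29.3%, 9.84% and 3.33% of 12380 genes. Deposited scaling gave 2, 4, 3, 1 and 2, against 72.5%, 77.2%, 45.3%, 16.9% and 5.14% of 12249 genes. Its 2 under PBS were Kng2, lower, and Nrg4, higher, in place of Vegfb, and its 4 under CL316,243 were 2 lower (Kng2 and Fndc5) and 2 higher (Nrg4 and Vegfb). The comparisons share libraries: each genotype comparison shares its 2 groups with the treatment comparisons, so the calls are not independent.

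**Figure D2:**
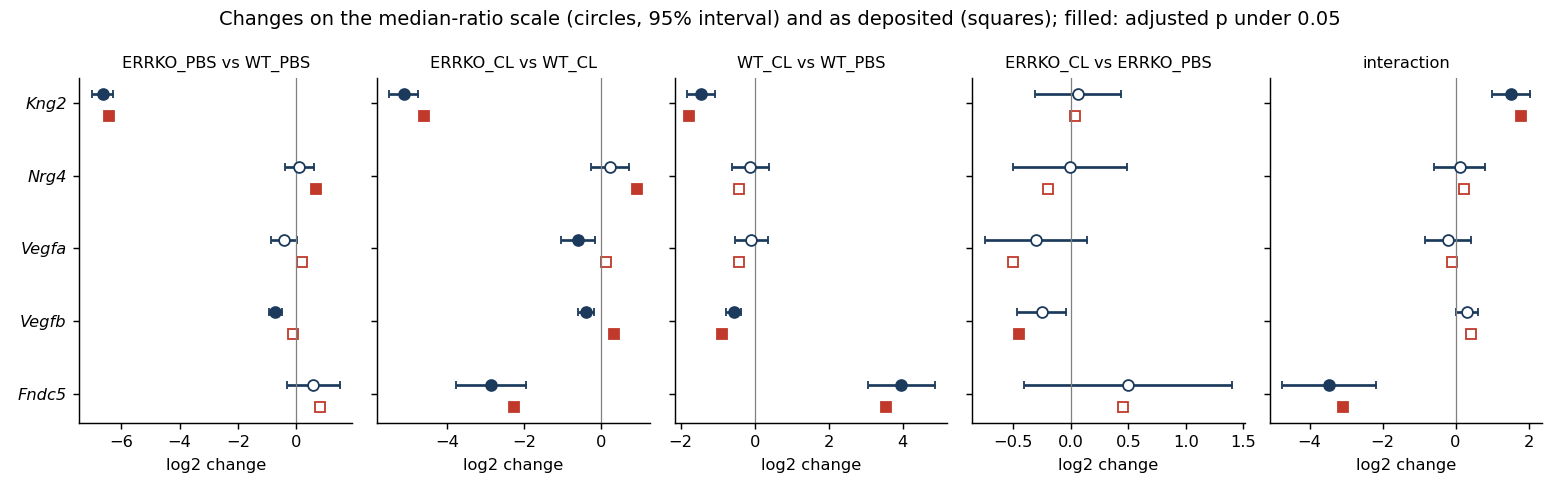
Log2 change (horizontal axes, a separate range in each panel) of the 5 tested genes in 5 comparisons. Circles with 95% intervals are on the median-ratio scale, squares are on the deposited scale and filled symbols have an adjusted p under 0.05. For ERRKO_CL against WT_CL Vegfa and Vegfb lie on opposite sides of 0 on the 2 scales, at -0.61 and 0.11 for Vegfa and -0.40 and 0.32 for Vegfb.

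Kng2, on the minus strand of chromosome 16 (22985854 to 23029482, GRCm38, GENCODE M21), had the largest change of the 5 genes tested. It was at 68.4, 43.0 and 64.4 scaled RPKM in the WT_PBS libraries, 18.9, 20.8 and 22.4 in WT_CL, 0.106, 0.0770 and 0.0526 in ERRKO_PBS and 0.0783, 0.228 and 0.0205 in ERRKO_CL. All 6 WT libraries lay above all 6 ERRKO libraries, and within WT the treatment groups were separate. The means of ERRKO_PBS and WT_PBS differed 745-fold, and those of ERRKO_CL and WT_CL 190-fold. The log2 change was -6.65 ± 0.17 (SE) under PBS (95% interval -7.02 to -6.27, limma, adjusted p = 4.32e-10) and -5.13 ± 0.17 under CL316,243 (adjusted p = 1.63e-09).

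Few reads remained in ERRKO. The 3 ERRKO_PBS libraries held 6, 4 and 3 reads of Kng2, 13 in all (exact Poisson 95% interval 6.92 to 22.2, counting error only), and the 3 ERRKO_CL libraries held 4, 11 and 1, or 16 in all (9.15 to 26.0). WT_PBS held 6328 reads and WT_CL 1882. CL316,243 lowered Kng2 in WT by a ratio of means of 2.83 (log2 -1.45 ± 0.17, adjusted p = 1.03e-04). In ERRKO the change was 0.06 (95% interval -0.31 to 0.43, adjusted p = 0.874), and a change was not detectable at this depth. The interaction was 1.51 ± 0.24 (adjusted p = 0.0062). It was not called with a pseudocount of 0.1 (1.58, adjusted p = 0.0644) or by edgeR on the recovered reads (1.92, adjusted p = 0.182). The genotype and WT treatment changes of Kng2 were called in every setting run, including without the ERRKO libraries numbered 3.

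**Figure D3:**
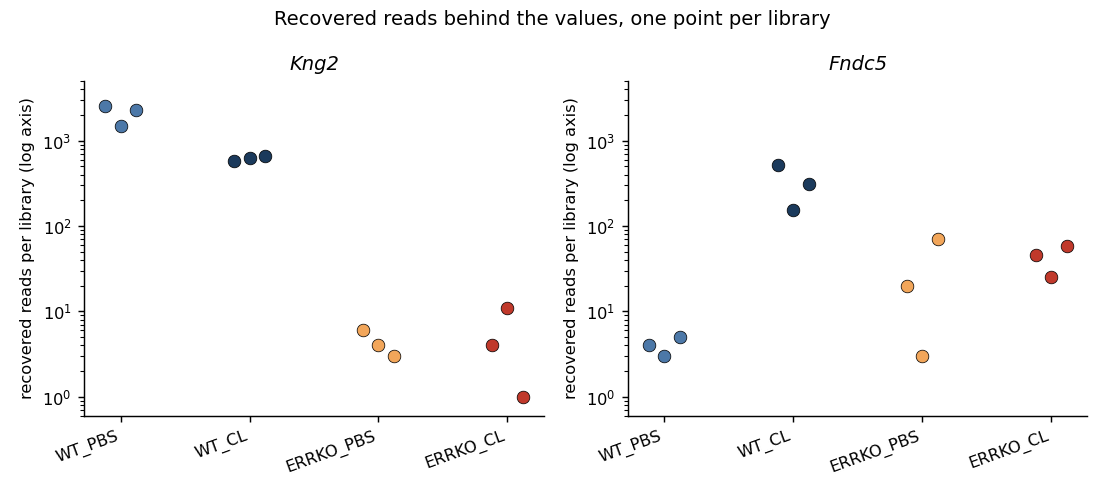
Recovered reads per library (vertical axes, log scale) of Kng2 and Fndc5 in the 4 groups, 1 point per library. Kng2 rests on 584 to 2567 reads in WT and 1 to 11 in ERRKO, and Fndc5 on 3 to 5 reads in WT_PBS and 152 to 516 in WT_CL.

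Kng2 has a close paralog, Kng1, on the same chromosome. Of the 2872 windows of 50 bases in Kng2 transcripts 19.4% also occur in Kng1 transcripts, so reads there cannot be assigned to either gene alone. Kng1 was listed at 0 or below 1e-06 RPKM in every library, a value too small for a whole read, and how the authors' counting divided shared reads is not given in the sources used here. The level of Kng2 is uncertain to that extent. Kininogens are best known from liver. Of 7 hepatocyte markers 3 were at 0 in every library, and their sum was at most 0.0410 in WT and 0.413 in ERRKO, below the Kng2 level of every WT library. Most brown adipocyte markers moved with Kng2 between genotypes (5 of 7 lower in ERRKO_PBS, 6 of 7 in ERRKO_CL, on both scales). On the deposited scale 1 of the 7 was higher in each. With CL316,243 in WT the markers went the other way (4 of 7 higher). Their part in the change of Kng2 was not tested.

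Because ERRs bind DNA at a half-site with the core AGGTCA, extended on its 5′ side in TCAAGGTCA, the sequence before the start of Kng2 is shown, with that core in capitals (RefSeq, GRCm38.p6, minus strand, chr16:23029102-23029351, 250 bases upstream of the RefSeq start, none of them in an annotated exon).
Kng2 upstream: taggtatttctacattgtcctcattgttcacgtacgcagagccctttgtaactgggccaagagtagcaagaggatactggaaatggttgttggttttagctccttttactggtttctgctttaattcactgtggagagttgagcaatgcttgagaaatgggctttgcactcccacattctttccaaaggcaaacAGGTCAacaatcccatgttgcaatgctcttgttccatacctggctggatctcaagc
The core begins 56 bases before the RefSeq start. That start lies inside the GENCODE span given above, so the printed stretch is within that span. Searched on both strands, AGGTCA or its reverse complement TGACCT occurred in 16.3% of 32851 RefSeq windows of 300 bases (250 before and 50 after the start), and the extended form TCAAGGTCA, which contains AGGTCA, in 0.423%. A match describes the sequence and is not a measured binding site. All 6 genes had a RefSeq window, and Kng2, Nrg4 and Vegfb held the core while Bmp8b, Vegfa and Fndc5 did not. TCAAGGTCA occurred in none of the 6. The core of the hypoxia response element, ACGTG (19.6% of windows), occurred in the windows of Kng2, Nrg4, Bmp8b, Fndc5 and the second of 2 Vegfa starts. Of the 300 bases of that second Vegfa window, 218 lie in annotated exons. The cAMP response element TGACGTCA (1.79%) occurred in none of the 6. Neither ACGTG nor TGACGTCA contains the other or the AGGTCA core.

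Most other genes of the kinin system lay below the filter on low values. Of 13 listed genes besides Kng2, 5 passed the filter. The kallikreins Klkb1 and Klk1, the contact factor F12 and the bradykinin receptors Bdkrb1 and Bdkrb2 did not pass it. Of the 5, 2 were lower and 1 higher in ERRKO_PBS, and 3 lower and 1 higher in ERRKO_CL, with medians of -0.09 and -0.43 against about 0 for all genes (-0.0032 to 0.022 over the 5 comparisons). Mme, a peptidase that degrades bradykinin, was at 29.7 ± 1.76 in WT_PBS and 46.9 ± 1.99 in WT_CL, against 24.8 ± 2.75 in ERRKO_PBS and 31.8 ± 1.88 in ERRKO_CL. It rose with CL316,243 in WT (0.65 ± 0.09, adjusted p = 3.54e-04). Its genotype changes of -0.26 and -0.55 turned to 0.32 and 0.15 on the deposited scale. Xpnpep1, an aminopeptidase, also rose with CL316,243 in WT (0.59 ± 0.09). It averaged 9.77 in WT_PBS and 14.9 in WT_CL, against 9.18 in ERRKO_PBS and 9.85 in ERRKO_CL, and the ERRKO groups overlapped. Serping1, the inhibitor of kallikrein and C1, was higher in ERRKO under PBS (0.55 ± 0.13) and CL316,243 (0.42 ± 0.13). The kinin-cleaving carboxypeptidase Cpm, named after its values were seen, was lower in both (-0.55 ± 0.14 and -0.43 ± 0.14). The deposited scale gave 4 of 5 higher and 0 lower under PBS, and 2 higher and 0 lower under CL316,243.

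Nrg4 lies on the minus strand of chromosome 9 (55220222 to 55326844) and did not pass in any of the 5 comparisons. Its level was 25.3, 33.3 and 33.4 in WT_PBS and 22.1, 36.0 and 27.7 in WT_CL, against 43.9, 31.8 and 25.7 in ERRKO_PBS and 25.3, 35.6 and 39.5 in ERRKO_CL. Every group overlapped every other. The change from WT to ERRKO was 0.12 ± 0.23 under PBS (95% interval -0.38 to 0.61, adjusted p = 0.729) and 0.22 under CL316,243 (-0.27 to 0.72, adjusted p = 0.464). With CL316,243 it was -0.11 in WT (-0.61 to 0.38) and -0.00 in ERRKO (-0.50 to 0.49). The intervals allow genotype changes of up to 0.72 on the log2 scale. Deposited scaling called Nrg4 higher in ERRKO, by 0.70 under PBS (adjusted p = 0.0136) and 0.93 under CL316,243 (adjusted p = 0.00232), where the typical gene was higher by 0.53 and 0.63. Nrg4 rested on 523 to 1891 reads per library. Exons of Fbxo22 and Gm15625 on the opposite strand overlap 8.97% of its exon bases, and the use of strand in counting is not given in the sources used here.
The 2 core matches before Nrg4 are shown because they lie beside a transcript that did not pass. The RefSeq start used here lies inside the GENCODE span given above, so both windows are within that span and in none of its exons. They read TGACCT on the strand of the gene, in capitals, 90 and 26 bases before the RefSeq start (minus strand, chr9:55283698-55283727 and chr9:55283634-55283663).
Nrg4, first: cttggctgctccTGACCTctgtgtgggcgt
Nrg4, second: cttggtctgcctTGACCTcgcccacactga

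Among the other EGF-family ligands, Btc (betacellulin) alone of 10 passed the filter. It was at 6.50 ± 0.355 in WT_PBS and 2.91 ± 0.824 in WT_CL, against 2.14 ± 0.422 in ERRKO_PBS and 1.96 ± 0.740 in ERRKO_CL. It stood lower in ERRKO_PBS (-1.42 ± 0.23, adjusted p = 5.23e-04) and fell with CL316,243 in WT (-1.07 ± 0.23, adjusted p = 0.00479). Of the 4 ErbB receptors 1 was higher and 1 lower in ERRKO in both treatments (medians -0.05 and 0.14), or 2 higher and 1 lower on the deposited scale. Egfr, the receptor of EGF and betacellulin, was the higher one (1.06 ± 0.18 under PBS and 1.10 ± 0.18 under CL316,243). Erbb3, a receptor of neuregulins named here after its values were seen, was lower (-1.14 ± 0.18 and -1.01 ± 0.18). Erbb4, the receptor of Nrg4, was not called, with -0.07 (adjusted p = 0.715) and 0.35 (adjusted p = 0.0555), and on the deposited scale it was called higher in both (0.34 and 0.81).

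Bmp8b, on the plus strand of chromosome 4 (123105165 to 123132099), was near the limit of detection and was not tested. It was listed at 0 in all WT_PBS and all ERRKO_PBS libraries. In WT_CL the deposited RPKM was 0.0395, 0.162 and 0.0202, and in ERRKO_CL it was 0, 0.0204 and 0. On that scale the 3 WT_CL values lay above every PBS value, and 2 of them above the single ERRKO_CL library with a value. Relative to the smallest of these values, after allowing for library totals, the WT_CL libraries held 2, 8 and 1 units and ERRKO_CL replicate 2 held 1. With 3 libraries against 3 an exact two-sided permutation test cannot give a p below 0.1. No fold is given against groups listed at 0. Of the 50-base windows of Bmp8b transcripts 5.5% occur in its paralog Bmp8a, and 12.2% of its exon bases overlap Gm17244 and Ppie on the opposite strand.

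Of 13 other BMP ligands 6 passed the filter, and 2 were higher and 1 lower in ERRKO_PBS. Gdf5, a growth factor of the BMP family, was the lower one, with means of 8.57 ± 1.82 in WT_PBS, 4.35 ± 0.626 in WT_CL, and 1.73 ± 0.612 and 2.03 ± 0.567 in the ERRKO groups (-2.04 ± 0.22 under PBS, adjusted p = 1.85e-05, and -0.95 ± 0.22 under CL316,243, a call lost on the deposited scale at -0.34, adjusted p = 0.173). Bmp4, which acts in early adipocyte commitment, was higher under PBS (0.85 ± 0.26). Bmp3, named after its values were seen, was higher in both treatments (0.56 ± 0.14 and 0.90 ± 0.14). Deposited scaling gave 3 ligands higher and 1 lower under PBS, and 3 higher and 0 lower under CL316,243. The receptors had 1 of 6 tested higher in each treatment, Acvr1 (0.92 ± 0.27 and 0.78 ± 0.27), and 5 and 6 higher on the deposited scale. Of the 3 signal carriers tested 1 was higher in each treatment, the shared Smad4 under PBS (0.33 ± 0.08) and Smad5 under CL316,243 (0.31 ± 0.10), with all 3 higher in both on the deposited scale.

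Inhibitors of BMP signalling included large rises. Of 9 tested, 4 were higher and 1 lower in ERRKO_PBS (median 0.19), and 5 higher in ERRKO_CL (median 0.44), or 5 and 6 higher and 0 lower on the deposited scale. Chrd, the extracellular antagonist chordin, was at 0.221, 0.373 and 0.618 in WT_PBS and 0.293, 0.623 and 0.708 in WT_CL, against 3.30, 2.99 and 2.56 in ERRKO_PBS and 3.40, 3.45 and 3.58 in ERRKO_CL. All ERRKO libraries lay above all WT libraries (1.95 ± 0.19 under PBS, adjusted p = 7.87e-06, and 1.96 ± 0.19 under CL316,243, adjusted p = 5.28e-06). Chrdl1, a chordin-like antagonist, was also higher (2.04 ± 0.25 and 1.21 ± 0.25). Of the 4 Id genes, direct targets of BMP signalling, 2 were lower in each treatment. Id2 was at 19.0 ± 2.48 in WT_PBS and 34.4 ± 9.51 in WT_CL, against 9.64 ± 2.38 in ERRKO_PBS and 6.26 ± 1.37 in ERRKO_CL, and the interaction of -1.39 ± 0.30 was called (adjusted p = 0.0294). Deposited scaling left no Id gene called under PBS, with 2 higher and 1 lower under CL316,243.

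Vegfa, on the minus strand of chromosome 17 (46016993 to 46032369), was at 126, 129 and 90.7 in WT_PBS and 96.6, 118 and 107 in WT_CL, against 81.6, 116 and 68.2 in ERRKO_PBS and 77.9, 79.3 and 55.3 in ERRKO_CL. The PBS groups overlapped. Every ERRKO_CL library lay below every WT_CL library, by a ratio of means of 1.51. The change was -0.40 ± 0.20 under PBS (95% interval -0.84 to 0.05, adjusted p = 0.155) and -0.61 ± 0.20 under CL316,243 (-1.05 to -0.16, adjusted p = 0.0316). With deposited scaling the second value was 0.11 (adjusted p = 0.644), so the direction depended on the scaling. The call was also lost without WT_CL replicate 2 (adjusted p = 0.0995), WT_CL replicate 3 (0.0722) or ERRKO_CL replicate 3 (-0.44, adjusted p = 0.132), and with muscle transcript level as a covariate (-0.42, adjusted p = 0.151). Under PBS a call appeared without ERRKO_PBS replicate 2 (-0.61, adjusted p = 0.033). With CL316,243 Vegfa changed by -0.09 in WT (-0.54 to 0.35) and -0.30 in ERRKO (-0.75 to 0.14), and neither passed.

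Vegfb was lower in ERRKO in both treatments and fell with CL316,243 in WT. The gene lies on the minus strand of chromosome 19 (6982473 to 6987651), 60.7 kb from Esrra. It was at 133, 117 and 148 in WT_PBS and 86.3, 93.5 and 87.4 in WT_CL, against 75.2, 87.1 and 80.0 in ERRKO_PBS and 68.8, 65.8 and 67.9 in ERRKO_CL. The groups did not overlap in any of the 4 pairwise comparisons, though the highest ERRKO_PBS library and the lowest WT_CL library, a pair that was not compared, did. The change from WT to ERRKO was -0.71 ± 0.10 under PBS (adjusted p = 1.38e-04) and -0.40 ± 0.10 under CL316,243 (adjusted p = 0.00604). On the deposited scale it was -0.12 under PBS (adjusted p = 0.219) and 0.32 under CL316,243 (adjusted p = 0.00452), so there Vegfb was called higher in ERRKO_CL. The direction under CL316,243 therefore depended on the scaling, and quantile normalization gave -0.09 (adjusted p = 0.305).
CL316,243 lowered Vegfb in WT by -0.57 ± 0.10 (adjusted p = 0.0012), and by -0.89 on the deposited scale. In ERRKO the change of -0.25 (95% interval -0.47 to -0.04) did not pass (adjusted p = 0.124) but did on the deposited scale (-0.45, adjusted p = 0.00521). The interaction of 0.31 (0.01 to 0.61) did not pass (adjusted p = 0.243). Macrophage markers moved with it in WT: 7 of 7 were lower with CL316,243, their sum going from 207 to 413 in WT_PBS to 116 to 153 in WT_CL. Their part in the change of Vegfb was not tested.
The windows around the 2 AGGTCA matches before Vegfb are shown as those of a member that was lower in ERRKO on the median-ratio scale, 241 and 73 bases before the start (minus strand, chr19:6987872-6987901 and chr19:6987707-6987736), with the core in capitals.
Vegfb, first: cggtccttcAGGTCAcgcatctcctcaccc
Vegfb, second: gagcgcgtgtttAGGTCAcatgagcctctt

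The other VEGF genes did not share one direction. Figf, the gene of VEGF-D, was at 1.49 ± 0.209 in WT_PBS and 2.97 ± 0.872 in WT_CL, against 4.45 ± 0.172 in ERRKO_PBS and 3.89 ± 0.232 in ERRKO_CL. It was higher in ERRKO_PBS (1.32 ± 0.16, adjusted p = 5.55e-05), rose with CL316,243 in WT (0.78 ± 0.16), and had an interaction of -0.95 ± 0.23 (adjusted p = 0.0404). Pgf, placental growth factor and a ligand of Flt1, fell with CL316,243 in WT (-0.94 ± 0.23) and in ERRKO (-0.79 ± 0.23, adjusted p = 0.0486). Of 5 receptors and coreceptors tested 2 were lower in ERRKO_PBS, Nrp1 (-0.33 ± 0.11, which turned to 0.26 on the deposited scale) and Nrp2 (-0.55 ± 0.13, or 0.02 on the deposited scale), with a list median of -0.44. In ERRKO_CL 0 of the 5 passed by limma (list median -0.24), and 2 were higher on the deposited scale. Kdr, the main VEGF receptor of endothelium, was not called under PBS (-0.47 ± 0.18, adjusted p = 0.0643). Deposited scaling gave 2 of the 3 other ligands tested higher under PBS and 3 under CL316,243. On the median-ratio scale 4 of 8 endothelial markers were lower in ERRKO_PBS and 2 of 8 in ERRKO_CL, while deposited scaling had 0 lower under PBS, and 5 higher and 0 lower under CL316,243. Their sums on the median-ratio scale were 270 to 396 in WT_PBS and 257 to 312 in WT_CL, against 230 to 277 in ERRKO_PBS and 214 to 268 in ERRKO_CL. Their part in the receptor values was not tested.

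Of 14 genes of the hypoxia response, the pathway that induces Vegfa, 12 passed the filter, and 2 were higher and 2 lower in ERRKO_PBS (median 0.17), and 3 higher and 2 lower in ERRKO_CL (median 0.26). Epas1, which encodes HIF-2α, was lower in ERRKO (-0.57 ± 0.12 under PBS and -0.66 ± 0.12 under CL316,243), with 0.02 and 0.05 on the deposited scale. Egln1, the oxygen-sensing prolyl hydroxylase, was at 54.2 ± 5.49 in WT_PBS and 23.3 ± 1.14 in ERRKO_PBS (-1.20 ± 0.10, adjusted p = 1.69e-06). Hif1a, the other oxygen-regulated subunit, was higher in ERRKO_PBS (0.38 ± 0.09, adjusted p = 0.0092). The deposited scale gave 9 higher and 1 lower under PBS, and 10 higher and 0 lower under CL316,243.

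Fndc5, on the plus strand of chromosome 4 (129136999 to 129144593), rose with CL316,243 in WT and was low elsewhere. It was at 0.0995, 0.0813 and 0.132 in WT_PBS and 15.6, 4.69 and 9.66 in WT_CL, against 0.331, 0.0539 and 1.15 in ERRKO_PBS and 0.840, 0.483 and 1.13 in ERRKO_CL. All 3 WT_CL libraries lay above all other libraries, while the other groups were at 1.15 or below. The ratio of means of WT_CL and WT_PBS was 95.7, and the log2 change was 3.97 ± 0.41 (95% interval 3.07 to 4.87, adjusted p = 5.1e-05). It rested on 12 reads over the WT_PBS libraries (exact Poisson 95% interval 6.20 to 21.0) against 977 over WT_CL. The edgeR estimate on the recovered reads was 6.54.

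ERRKO_CL stood below WT_CL by a ratio of means of 12.2 (log2 -2.87 ± 0.41, adjusted p = 1.5e-04). In ERRKO the change with CL316,243 was 0.50 (95% interval -0.40 to 1.41, adjusted p = 0.507), and the groups overlapped. The interaction was -3.47 ± 0.59 (-4.75 to -2.19, adjusted p = 0.00824) and was also called by edgeR (adjusted p = 0.017). Under PBS the genotype change of 0.59 (-0.31 to 1.5, adjusted p = 0.291) did not pass by limma, and DESeq2 on the recovered reads called it (2.29, adjusted p = 0.045).

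**Figure D4:**
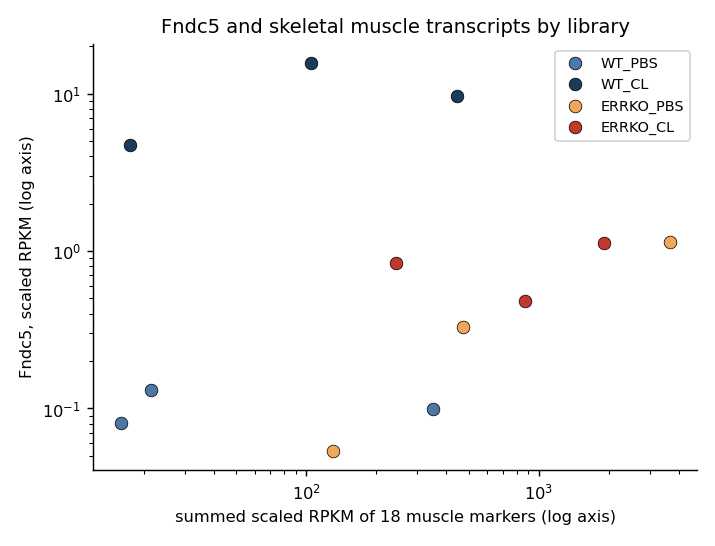
Scaled RPKM of Fndc5 (vertical axis, log scale) against the summed scaled RPKM of 18 skeletal muscle markers (horizontal axis, log scale), 1 point per library, coloured by group. WT_CL replicate 2 has a muscle sum of 17.4 and Fndc5 at 4.69, while ERRKO_PBS replicate 3 has a muscle sum of 3655 and Fndc5 at 1.15.

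Fndc5 is also expressed in skeletal muscle, whose transcripts varied between libraries. In ERRKO_PBS the libraries had Fndc5 at 0.331, 0.0539 and 1.15 and muscle sums of 471, 130 and 3655 in that order of replicates, so both ranked alike. In the other 3 groups the 2 orders differed in part: the sums were 349, 15.9 and 21.5 in WT_PBS, 105, 17.4 and 442 in WT_CL, and 244, 871 and 1896 in ERRKO_CL. Replicate 2 was lowest in both Fndc5 and muscle sum in WT_PBS and in WT_CL, and replicate 3 was highest in both in ERRKO_CL. Between groups, Fndc5 was at 4.69 to 15.6 in WT_CL and at 1.15 or below in the others, whose muscle sums overlapped those of WT_CL. With muscle transcript level as a covariate the rise in WT was 3.86 (adjusted p = 2.21e-05), the genotype change under CL316,243 -3.37 (adjusted p = 4.15e-05) and that under PBS 0.03 (adjusted p = 0.966). Muscle sums also differed between genotypes, so this fit cannot separate muscle RNA from group. The part of muscle tissue in the Fndc5 values was not tested.

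Other Fndc genes did not follow Fndc5. Of 4 that passed the filter, 2 were lower and 0 higher with CL316,243 in WT (median -0.35, or 4 lower on the deposited scale), and 3 were higher and 0 lower in ERRKO_CL than in WT_CL (median 0.72). Fndc3b, which encodes a membrane protein with fibronectin type III domains, was higher in ERRKO under PBS (0.74 ± 0.09, adjusted p = 4.54e-05) and CL316,243 (1.12 ± 0.09, adjusted p = 9.63e-07), and fell with CL316,243 in WT (-0.31 ± 0.09). Fndc4, the closest relative of Fndc5, named after its values were seen, fell with CL316,243 in WT (-0.65 ± 0.17, adjusted p = 0.0132). Of the integrin subunits reported as irisin receptors, Itgb5 fell with CL316,243 in WT from 32.2 ± 2.48 to 16.8 ± 1.78 (-0.92 ± 0.10, adjusted p = 8.45e-05), with an interaction of 0.63 ± 0.15 (adjusted p = 0.0375). Itgav did not pass in any comparison on the median-ratio scale.

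The genes closest in pattern were found over the 12 libraries among 11103 genes, by the root-mean-square difference of centred log2 values. For Kng2 they were Fabp3 (0.881), a fatty acid carrier, Chchd10 (1.15) and Me3 (1.19). Fabp3 averaged 998, 447, 24.0 and 21.7 in WT_PBS, WT_CL, ERRKO_PBS and ERRKO_CL, so even the nearest gene kept a far larger part of its level in ERRKO than Kng2. For Fndc5 they were Dnajc22 (0.563), Arhgef19 (0.637) and Fam131c (0.723). These 3 genes averaged 4.17, 5.05 and 11.8 in WT_CL and at most 0.205 in each other group. For Vegfb the nearest was Pde6d (0.0529), at 17.4, 11.9, 10.9 and 8.77 in the same order of groups, followed by Malat1 (0.134) and Pdrg1 (0.137). For Vegfa they were Pank4 (0.181), Gimap1 (0.189) and Tmc8 (0.197). A small difference is easier to reach for a gene of small range, so these values do not rank the 4 members.

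Further genes of factors reported as secreted by brown fat were taken from a list of 25 names, of which 17 passed the filter. In ERRKO_PBS 5 were higher and 3 lower (median 0.19), and in ERRKO_CL 7 higher and 4 lower (median 0.42). On the deposited scale these were 9 and 3, and 10 and 4. S100b, a calcium-binding protein that brown adipocytes release towards sympathetic nerves, was at 25.3, 37.3 and 65.1 in WT_PBS and 111, 57.6 and 104 in WT_CL, against 1.91, 2.34 and 2.21 in ERRKO_PBS and 6.42, 4.05 and 6.11 in ERRKO_CL. The 6 ERRKO values were below the 6 WT values (-3.92 ± 0.31, adjusted p = 1.75e-06, and -3.89 ± 0.31, adjusted p = 1.27e-06). S100b rose with CL316,243 in both genotypes (1.13 ± 0.31 in WT and 1.16 ± 0.31 in ERRKO). Pm20d1, an enzyme that makes N-acyl amino acids, was lower in ERRKO (-2.39 ± 0.17 and -2.97 ± 0.17), as was the prostaglandin D synthase Ptgds (-2.34 ± 0.25 and -3.03 ± 0.25).

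Other secreted factors were higher in ERRKO. Rbp4, the retinol carrier of plasma, was at 14.0 ± 8.83 in WT_PBS and 82.2 ± 15.8 in WT_CL, against 78.2 ± 7.43 in ERRKO_PBS and 172 ± 26.7 in ERRKO_CL, and rose with CL316,243 in WT (2.66 ± 0.31) and ERRKO (1.13 ± 0.31, adjusted p = 0.0393). Fgf2, a growth factor stored in the matrix, was higher in ERRKO (2.03 ± 0.17 and 1.57 ± 0.17), and so were Igf1 (1.53 ± 0.35 and 1.29 ± 0.35) and the phospholipid transfer protein Pltp (0.89 ± 0.12 and 1.42 ± 0.12). With CL316,243 4 of the 17 rose and 6 fell in WT, and 2 rose and 2 fell in ERRKO. The deposited scale had 4 higher and 10 lower in WT, and 2 higher and 6 lower in ERRKO. Apoe, the lipoprotein component, fell in WT from 1379 ± 134 to 373 ± 9.92 (-1.88 ± 0.17, adjusted p = 1.75e-05), was at 1762 ± 378 in ERRKO_PBS and 1579 ± 182 in ERRKO_CL, and had an interaction of 1.74 ± 0.24 (adjusted p = 0.00276). Macrophages also express Apoe, and 7 of 7 macrophage markers were lower with CL316,243 in WT on both scales, and in ERRKO 2 of 7 on the median-ratio scale and 6 of 7 on the deposited scale. Their part in the change of Apoe was not tested.

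**Figure D5:**
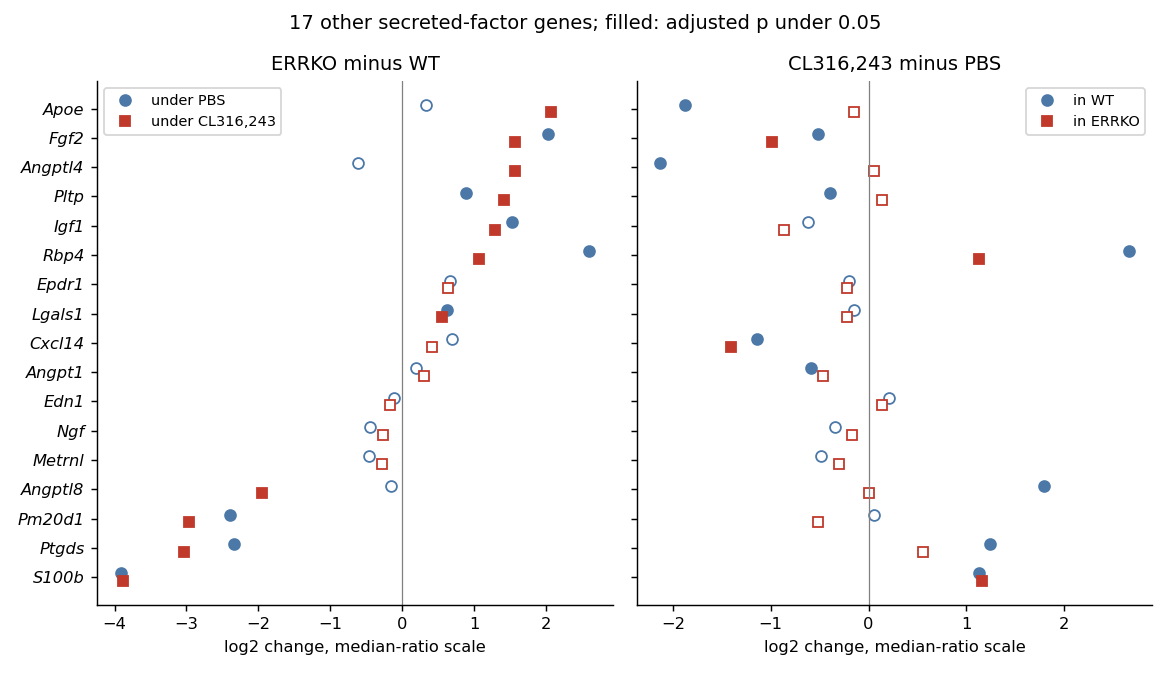
Log2 change (horizontal axes, median-ratio scale) of 17 other secreted-factor genes between genotypes (left, circles under PBS, squares under CL316,243) and with CL316,243 (right, circles in WT, squares in ERRKO); filled symbols have an adjusted p under 0.05. S100b, Ptgds and Pm20d1 lie lowest on the left in both treatments, between -3.92 and -2.34.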

How the data were processed

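Brown adipose tissue RNA of 12 mouse samples was measured, and groups and replicate numbers were taken from the labels. Libraries were made from 1 µg of RNA with a TruSeq total RNA kit, per the labels' protocols. The submitters' processing notes name bcl2fastq 2.16.0.10, cutadapt, STAR 2.3.0, edgeR and the builds mm9 and mm10, without a role for either build, while how reads were counted, on which annotation and with which strand setting is not given in the sources used here. The authors deposited RPKM values for 24452 genes, 6296 of them at 0 in every library. A second table deposited by the authors holds a linear signal for 12380 genes, whose values are whole multiples of a step in each library (100% whole within 0.01), and division by that step gave back the reads. A further 9 stray cells of that table lie outside the sample columns and were left out. No pair of libraries held identical values (0 pairs).

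RPKM values were divided by median-of-ratios factors and fitted as log2 of scaled RPKM plus 0.5, for 12191 genes with a mean of at least 0.5, in limma 3.58.1 (R 4.3.3) with a trended empirical Bayes step. The fit held 12 libraries and 4 group means, leaving 8 residual degrees of freedom. Each of 5 comparisons was adjusted on its own (Benjamini-Hochberg), and an adjusted p under 0.05 was a call. edgeR 4.0.16 quasi-likelihood and DESeq2 1.42.0 were run on the recovered reads. Other settings were the deposited scale, quantile normalization, pseudocounts, filters, a replicate block, a muscle covariate and each library left out. The fit was also run on simulated reads in which some genes changed in ERRKO_PBS alone, up and down alike. That run held no shift of the typical gene between genotypes, so it cannot test the choice of scaling. Members and gene lists were chosen with earlier results of these data known. Named genes were the 6 members, list genes with a mean scaled RPKM of at least 1 that passed in a comparison (others are marked), list genes given with values that did not pass, Esrra and Esrrg, and the 3 genes nearest in pattern to each called member. Gene positions are from GENCODE M21 on GRCm38 and promoter sequences from RefSeq on GRCm38.p6, not from the files.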

Additional observations from a re-analysis of the deposited data

Results flagged for a closer look

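Kng2 had a called interaction (ERRKO response to CL316,243 minus WT response) of 1.51 on the log2 scale. Its ERRKO level was too near 0 for a fall like that of WT to appear, so the call cannot show that the responses differ. The response was -1.45 in WT, lower in 3 of 3 WT_CL libraries than in every WT_PBS library, and 0.06 in ERRKO, where the libraries held 1 to 11 reads. The call did not hold on the recovered reads in edgeR (adjusted p = 0.182 with TMM).

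The response of Fndc5 differed between genotypes, with an interaction of -3.47. The response was 3.97 in WT, higher in 3 of 3 WT_CL libraries than in every WT_PBS library, and 0.50 in ERRKO, where the groups overlapped. The call held in edgeR (adjusted p = 0.017).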

How the results depend on the processing

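Deposited scaling called 8877 genes between genotypes under PBS, 9451 under CL316,243 and 2068 for CL316,243 in ERRKO, where the median-ratio scale called 4183, 5079 and 1251. There the change in ERRKO_CL against WT_CL turned to 0.11 for Vegfa and 0.32 for Vegfb. For CL316,243 in ERRKO 1 member was called on the deposited scale and 1 under quantile normalization (Vegfb in both), and quantile normalization left 2 members called in ERRKO_CL against WT_CL. The interaction kept 1 member (Fndc5) with a pseudocount of 0.1, with edgeR and TMM, and with edgeR and median-of-ratios factors, and DESeq2 called 823 genes against 478. Leaving out each library in turn gave 513 to 1656 genes for CL316,243 in ERRKO and 226 to 833 for the interaction. Without both ERRKO libraries numbered 3 these were 456 and 218. Of the members' values under all settings, 624 kept their side of the threshold, 12 lost the call, 7 gained it and 2 reversed. A change of sign was counted as reversed only where a value passed, so the 624 include values that changed sign without passing. Nrg4 under PBS, for example, ran from -0.087 to 0.29 with each library left out in turn. The Vegfa call in ERRKO_CL was lost in several settings, among them no filter (limma, adjusted p = 0.0623) and those given with its values.

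The replicate numbers were not treated as pairs. After removal of group means, 18 pairs of libraries with the same number correlated at -0.41 to 0.49, 7 of them over 0.1. Libraries with different numbers were not compared, so these values cannot show whether the numbers pair the samples. With the replicate block 4064, 4913, 3522, 1072 and 373 genes were called in the 5 comparisons, and Vegfa was also called under PBS (-0.40, adjusted p = 0.0495), making 3 members. Depth limits Kng2 in ERRKO, Fndc5 in WT_PBS and Bmp8b in every group.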
